A study of Mus musculus with 8 samples.

Results

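Mouse embryonic stem cells given 250 nM 4OHT (4-hydroxytamoxifen) for 10 h were set against untreated cells, with 2 arrays in each group, 4 of the 8 arrays of the series. The 4 arrays were chosen by their titles alone, and their expression values played no part in that choice. All cells, the untreated ones included, grew in stem cell medium with LIF, a cytokine that sustains self-renewal, and with 250 nM PD173074, which inhibits FGF receptors. The other groups of the series had 4OHT for 8 h, or 4OHT for 8 h followed by 1 µM PD0325901, which inhibits the kinase MEK, for 2 h. The labels give no strain, clone or transgene, and the controls are labelled untreated with no vehicle named. A response to 4OHT itself therefore cannot be told apart from a response to any protein it switches on.

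4OHT is used to activate proteins fused to a modified oestrogen receptor, and the series title names Erk. The question addressed here is which transcripts differed after 10 h of 4OHT. Whether they depend on ERK was not tested. In the ERK pathway RAS proteins activate RAF kinases, RAF phosphorylates MEK and MEK phosphorylates ERK, which acts on transcription factors of the ETS and AP-1 families. ERK also induces its own inhibitors, among them dual-specificity phosphatases and Sprouty proteins. In mouse embryonic stem cells the FGF and ERK pathway promotes exit from naive pluripotency, and its inhibition together with LIF helps to hold the cells in that state.

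At 4OHT 10h the feedback genes Dusp6, Spry4 and Spry2 were 7.73-, 10.3- and 3.63-fold above untreated cells, and the immediate early genes Egr1, Fosl1 and Phlda1 18.8-, 20.8- and 26.9-fold. The naive factors fell in 8 of 16 genes and rose in 5. Nanog (on its brighter probe), Prdm14 and the Nodal antagonist Lefty1 were 8.58-, 8.48- and 61.3-fold lower, while Pou5f1 and Sox2 were not called. Formative epiblast genes rose in 11 of 19 and fell in 1, and trophoblast genes rose in 9 of 19 and fell in 5, with Pou3f1 10.9-fold and Cdx2 92.6-fold higher. Each comparison is of 2 arrays with 2.

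Expression is given as log2 of the processed signal relative to the 75th percentile of the same array, and a change is the log2 difference of 4OHT 10h minus untreated ± the standard error of the limma fit. A gene was called when the adjusted p of that fit was under 0.05, and "rose" and "fell" are used of such genes only. Where a call was lost or gained under another setting or with 1 array left out, the adjusted p found there stands in brackets. The 2 arrays of a group are not stated to come from separate cultures, so the p-values rest on a spread that may be purely technical. The number of arrays limits the precision. Of 59305 non-control spots 36889 and 30502 were well above background at 4OHT 10h, against 37236 and 31428 in untreated cells, and no spot was saturated. All 10 embryonic stem cell markers, among them Pou5f1, Sox2 and Zfp42, were well above background on all 4 arrays, with a summed level of 994 and 923 times the 75th percentile at 4OHT 10h, against 979 and 1004 in untreated cells. The brightest of the 10 was Dppa5a, at 8.83 and 8.75 at 4OHT 10h, against 8.73 and 8.76 in untreated cells. Nanog, Klf4 and Esrrb fell, Utf1 rose and the others were not called, so the sum does not show that each marker held its level. In such bulk RNA, fewer cells of a type and less RNA per cell cannot be told apart.

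Of 22677 genes and unnamed features tested, 6331 (27.9%) were called, 2980 (13.1%) higher and 3351 (14.8%) lower at 4OHT 10h. Centred on the array median in place of the 75th percentile, which moved the median change of all genes by 0.19, 4867 were higher and 1852 lower. Each of the 6331 had the same sign of change in replicate 1 and in replicate 2, and the 4OHT 10h and untreated arrays did not overlap for any of them, while for 15585 (68.7%) of all tested the groups did not overlap. The change was at least 2-fold for 2117 (9.34%), of which 1008 (4.45%) were higher and 1109 (4.89%) lower. Most calls, 4214, were under 2-fold. With the replicate number as a block 8865 (39.1%) were called. Among the 77 called changes of 4 or more on the log2 scale, 63 were higher and 14 lower. The 14490 features with a gene symbol were called more often (33.9%) than the 8187 without one here (17.4%). With 1 array left out, 3933 genes were called when that was replicate 1 at 4OHT 10h, 3173 for replicate 2 at 4OHT 10h, 3877 for replicate 1 of untreated cells and 4062 for replicate 2 of untreated cells. With only the 4 arrays compared 3991 were called, and with no filter on dim probes 3312. Where a share called is given for a list, it stands against 27.9% of all features. All list members have a gene symbol, and of the features with one 33.9% were called. Where 4 counts for a list are given below as left-out counts, they follow that order of arrays. A probe bright in only some groups passed the filter, so a member could be tested only through the group where it was high. Members above background on neither array of a group, such as Egr2, Areg, Mmp9, Hand1 and Gsc, are in the counts of their lists. Such members can raise the share called, in the lists as among all features.

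**Figure D1:**
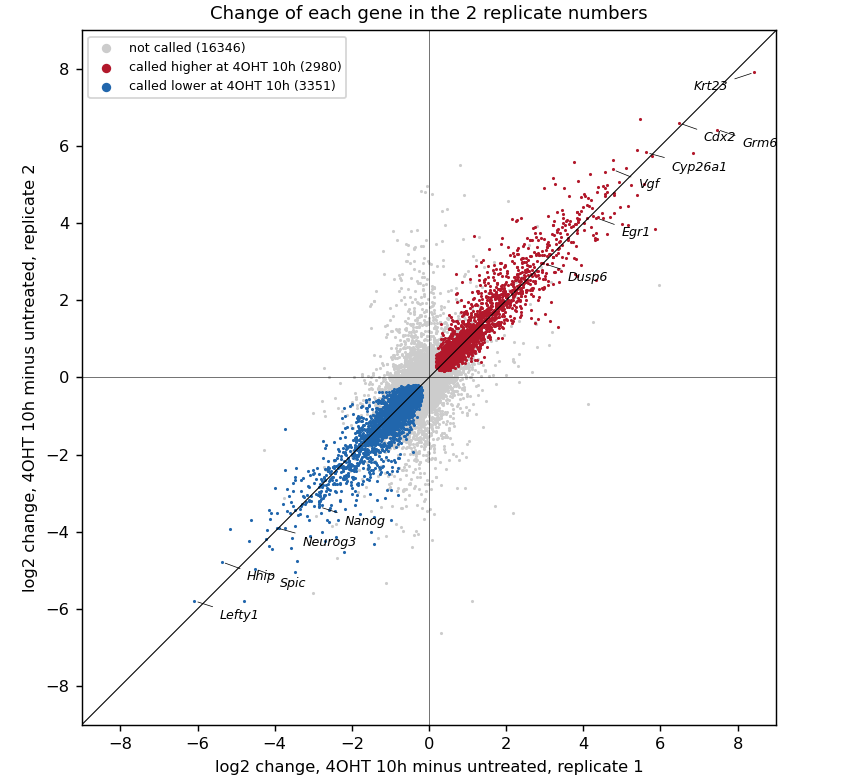
Each point is 1 gene, with its log2 change at 4OHT 10h minus untreated in replicate 1 on the horizontal axis and in replicate 2 on the vertical axis; red points were called higher (2980), blue points lower (3351) and grey points were not called. The line marks equal changes, and the called genes lie on the same side of 0 in both replicate numbers, with Krt23 and Cdx2 at one end and Lefty1 at the other.

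Feedback inhibitors of the pathway, among them Dusp6, Spry2 and Spry4, rose. Dusp6, a cytoplasmic ERK phosphatase, stood at 6.38 and 6.42 at 4OHT 10h, against 3.43 and 3.46 in untreated cells, a change of 2.95 ± 0.09 or 7.73-fold (adjusted p = 0.000108). The replicates of each group lay close together, and the groups did not overlap. Dusp4, a nuclear phosphatase of ERK and JNK, stood at 2.64 and 3.05 at 4OHT 10h, against -1.36 and -1.38 in untreated cells (4.21 ± 0.21, or 18.6-fold). Dusp5, which retains ERK in the nucleus, stood at -0.46 and -0.13 at 4OHT 10h, against -4.59 and -4.78 in untreated cells, with 1 untreated array above background (4.39 ± 0.13). In each of these genes both 4OHT arrays lay above both untreated arrays. Dusp1 and Dusp2, nuclear phosphatases induced early after stimulation, changed by 2.09 ± 0.10 and 3.25 ± 0.28. Among the MAPK dual-specificity phosphatases 5 of 11 rose and 2 fell (median -0.07, of the other sign, against -0.05 for all genes tested), with left-out counts of 5, 5, 5 and 5 higher and 1, 2, 2 and 1 lower, 63.6% called. The 2 that fell were Dusp16 (-0.87 ± 0.07, adjusted p = 0.000902), which acts mainly on JNK and p38, and Dusp7 (-0.68 ± 0.12), an ERK phosphatase whose call was lost on leaving out replicate 1 at 4OHT 10h (0.0516) and on leaving out replicate 2 of untreated cells (0.0533).

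Of the Sprouty, Spred and receptor feedback genes 10 of 17 rose and 1 fell (median 1.15, left-out counts 10, 8, 8 and 9 higher and 1, 1, 1 and 1 lower, 64.7% called). Spry4, a Sprouty protein that restrains RAS and RAF activation, stood at 2.65 and 2.53 at 4OHT 10h, against -0.72 and -0.82 in untreated cells (3.36 ± 0.16, 10.3-fold). Spry2 stood at 2.41 and 2.44 at 4OHT 10h, against 0.59 and 0.55 in untreated cells (1.86 ± 0.10, 3.63-fold). Spred1, which recruits the RAS GTPase-activating protein NF1, stood at 3.32 and 3.24 at 4OHT 10h, against 1.33 and 1.29 in untreated cells (1.97 ± 0.07). Both groups were tight in all 3. Rasa2, a RAS GTPase-activating protein, rose by 1.72 ± 0.17, Spred3 by 2.25 ± 0.22 with 1 untreated array above background, and Socs2, a suppressor of cytokine signalling, by 2.05 ± 0.10. Rasal1, another RAS GTPase-activating protein, was the member that fell (-0.82 ± 0.12, adjusted p = 0.00692).

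The kinases of the cascade itself changed little in comparison. Of 16 RAF, MEK, ERK and RSK genes 1 rose and 2 fell, with a median of -0.01 (left-out counts 1, 0, 0 and 0 higher and 2, 2, 3 and 2 lower, 18.8% called). The list had 4 higher and 1 lower with arrays centred on their median. Mapk3, the gene of ERK1, stood at 3.63 and 3.70 at 4OHT 10h, against 3.81 and 3.72 in untreated cells (-0.10 ± 0.08, adjusted p = 0.377). The member that rose was Braf (0.96 ± 0.18, adjusted p = 0.0145), whose call was lost on leaving out replicate 2 at 4OHT 10h (0.0586), on leaving out replicate 1 of untreated cells (0.0727) and on leaving out replicate 2 of untreated cells (0.0536). Rps6ka4 (MSK2), a nuclear kinase downstream of ERK and p38, stood at 0.25 and 0.26 at 4OHT 10h, against 1.39 and 1.20 in untreated cells (-1.04 ± 0.10), and the other that fell was the scaffold gene Ksr1 (-0.50 ± 0.08, adjusted p = 0.00786, lost with arrays centred on their median (0.078)), whose other kept probe was not called (-0.20).

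Upstream of the kinases, the RAS exchange factors that were called went in opposite directions. Sos1, Sos2, Rasgrp2, Rasgrf2, Rasgef1b and Rasgef1c, of the same class, were not called. Rasgrp3, a diacylglycerol-responsive RAS activator, stood at -1.54 and -1.42 at 4OHT 10h, against -4.08 and -3.94 in untreated cells (2.53 ± 0.09, 5.77-fold). Rasgrp1 of the same family stood at -5.38 and -4.38 at 4OHT 10h, against -1.40 and -1.51 in untreated cells (-3.43 ± 0.34), with 1 array at 4OHT 10h above background. Rasgef1a, a further exchange factor, was well above background on both untreated arrays and on neither at 4OHT 10h, so it was lower by at least 21.3-fold. Such bounds divide the mean of the brighter group by a stand-in for the dimmer one, which per array is the faintest signal still well above background or, if larger, the signal of the probe. The adaptors Shc1 (1.14 ± 0.13) and Grb2 (0.72 ± 0.10) and the RAS-like GTPase gene Rras2 (1.39 ± 0.10) rose. In that list 7 of 21 rose and 3 fell (median 0.22, left-out counts 4, 4, 4 and 5 higher and 3, 2, 2 and 2 lower, 47.6% called). Counts for the list moved to 4 higher and 2 lower under quantile normalization and 1 lower among probes above background on all 8 arrays.

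The ETS factors, many of which are ERK substrates, did not move as a family. Etv4 stood at 6.12 and 6.09 at 4OHT 10h, against 4.29 and 4.10 in untreated cells (1.91 ± 0.08, 3.77-fold), and both 4OHT arrays lay above both untreated arrays. Etv5, its close paralog and like it often induced by FGF signalling, stood at 6.55 and 6.52 at 4OHT 10h, against 6.50 and 6.67 in untreated cells (-0.05 ± 0.08, adjusted p = 0.691) and the groups overlapped. Etv6, a repressor of the family, rose by 1.29 ± 0.11. Elf3, an epithelial ETS factor, stood at -2.35 and -2.23 at 4OHT 10h, against 0.74 and 0.31 in untreated cells (-2.81 ± 0.16, 7.03-fold lower), and Spic, a factor of the PU.1 group, at -2.85 and -3.47 at 4OHT 10h, against 1.66 and 1.48 in untreated cells (-4.73 ± 0.28, 26.6-fold lower). In all, 5 of 21 rose and 6 fell (median 0.02, left-out counts 2, 2, 2 and 3 higher and 3, 3, 3 and 4 lower, 52.4% called). Other settings gave 5 higher and 4 lower with arrays centred on their median, 3 higher and 5 lower under quantile normalization and 5 higher and 3 lower under normexp background correction.

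Several immediate early genes, a class induced without new protein synthesis, were higher at 4OHT 10h. Egr1, a zinc finger factor, stood at 5.16 and 5.56 at 4OHT 10h, against 0.83 and 1.42 in untreated cells (4.24 ± 0.29, 18.8-fold). Egr2 was well above background on both arrays at 4OHT 10h and on neither untreated array, and rose by at least 5.78-fold. Nab2, a corepressor of the EGR factors that they induce, stood at 4.94 and 5.22 at 4OHT 10h, against 3.18 and 3.08 in untreated cells (1.95 ± 0.14), and its relative Nab1 rose by 1.97 ± 0.10. By limma 4 of the 5 EGR and NAB genes tested rose and 0 fell (median 1.97, left-out counts 4, 4, 4 and 4 higher, 80.0% called). The member not called, named after its value was seen, was Egr4. Egr2 passed the filter on dim probes only through groups given 4OHT, and Egr3 was not among those tested.

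Fos, the AP-1 subunit, stood at 0.41 and 1.23 at 4OHT 10h, against -2.38 and -2.15 in untreated cells (3.09 ± 0.33, 8.5-fold), with the 4OHT replicates further apart than the untreated ones. Fosl1 stood at 0.61 and 0.89 at 4OHT 10h, against -3.45 and -3.82 in untreated cells (4.38 ± 0.15, 20.8-fold). Fosl2 stood at -0.13 and 0.10 at 4OHT 10h, against -4.31 and -5.16 in untreated cells (4.72 ± 0.30, 26.4-fold), with 1 untreated array above background. For both, the lowest 4OHT array lay more than 4 above the highest untreated array on the log2 scale. Junb rose by 2.28 ± 0.22, and the small MAF genes Maff and Mafk by 1.88 ± 0.11 and 1.02 ± 0.07. Jdp2, a JUN partner that represses AP-1 sites, stood at -2.92 and -3.29 at 4OHT 10h, against -0.45 and -0.93 in untreated cells (-2.41 ± 0.35) and was the member that fell. In this list 7 of 14 rose and 1 fell (median 0.65, left-out counts 7, 7, 6 and 8 higher and 1, 1, 1 and 2 lower, 57.1% called).

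Of the other immediate early genes 15 of 27 rose and 3 fell (median 0.79, left-out counts 14, 13, 13 and 14 higher and 2, 1, 2 and 2 lower, 66.7% called). Phlda1, a pleckstrin homology protein, stood at 5.74 and 6.25 at 4OHT 10h, against 1.23 and 1.28 in untreated cells (4.75 ± 0.24, 26.9-fold). Arc, a synaptic immediate early gene in neurons, stood at 5.60 and 5.76 at 4OHT 10h, against 2.51 and 2.26 in untreated cells (3.29 ± 0.11, 9.81-fold). Csrnp1, a nuclear factor, stood at 5.12 and 5.30 at 4OHT 10h, against 3.07 and 2.69 in untreated cells (2.32 ± 0.16), with the groups further apart than the replicates. Gem, a small GTPase gene, rose by 2.65 ± 0.10, the pseudokinase gene Trib1 by 2.17 ± 0.17 and the Krüppel-like factor gene Klf6 by 1.43 ± 0.13. Homer1, a synaptic scaffold, stood at -1.51 and -1.35 at 4OHT 10h, against -0.53 and -0.59 in untreated cells (-0.87 ± 0.09) and fell, but 2 of its 4 other kept probes were not called (-0.07 and -0.44).

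Many immediate early messages carry AU-rich elements, and some genes of proteins that bind these elements and shorten the poly(A) tail rose, 6 of 17 in the list. Zfp36 (tristetraprolin) stood at -0.92 and -1.14 at 4OHT 10h, against -3.06 and -3.56 in untreated cells (2.28 ± 0.19, 4.85-fold). Zfp36l2 stood at 5.14 and 5.25 at 4OHT 10h, against 2.85 and 2.88 in untreated cells (2.33 ± 0.09, 5.01-fold), and Zfp36l1 at 4.74 and 4.48 at 4OHT 10h, against 3.25 and 3.21 in untreated cells (1.38 ± 0.15). Noct (nocturnin), of the family of the CCR4 deadenylases, stood at 6.37 and 6.26 at 4OHT 10h, against 4.14 and 4.11 in untreated cells (2.19 ± 0.10). All 4 were higher on both 4OHT arrays than on either untreated array. Tob1, an adaptor that recruits deadenylases and restrains proliferation, stood at 0.22 and -0.19 at 4OHT 10h, against 1.50 and 1.21 in untreated cells (-1.34 ± 0.20) and fell. In that list 6 of 17 rose and 1 fell (median 0.14, left-out counts 4, 5, 4 and 5 higher and 1, 1, 1 and 1 lower, 41.2% called). Its counts became 6 higher and 2 lower with the replicate block.

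**Figure D2:**
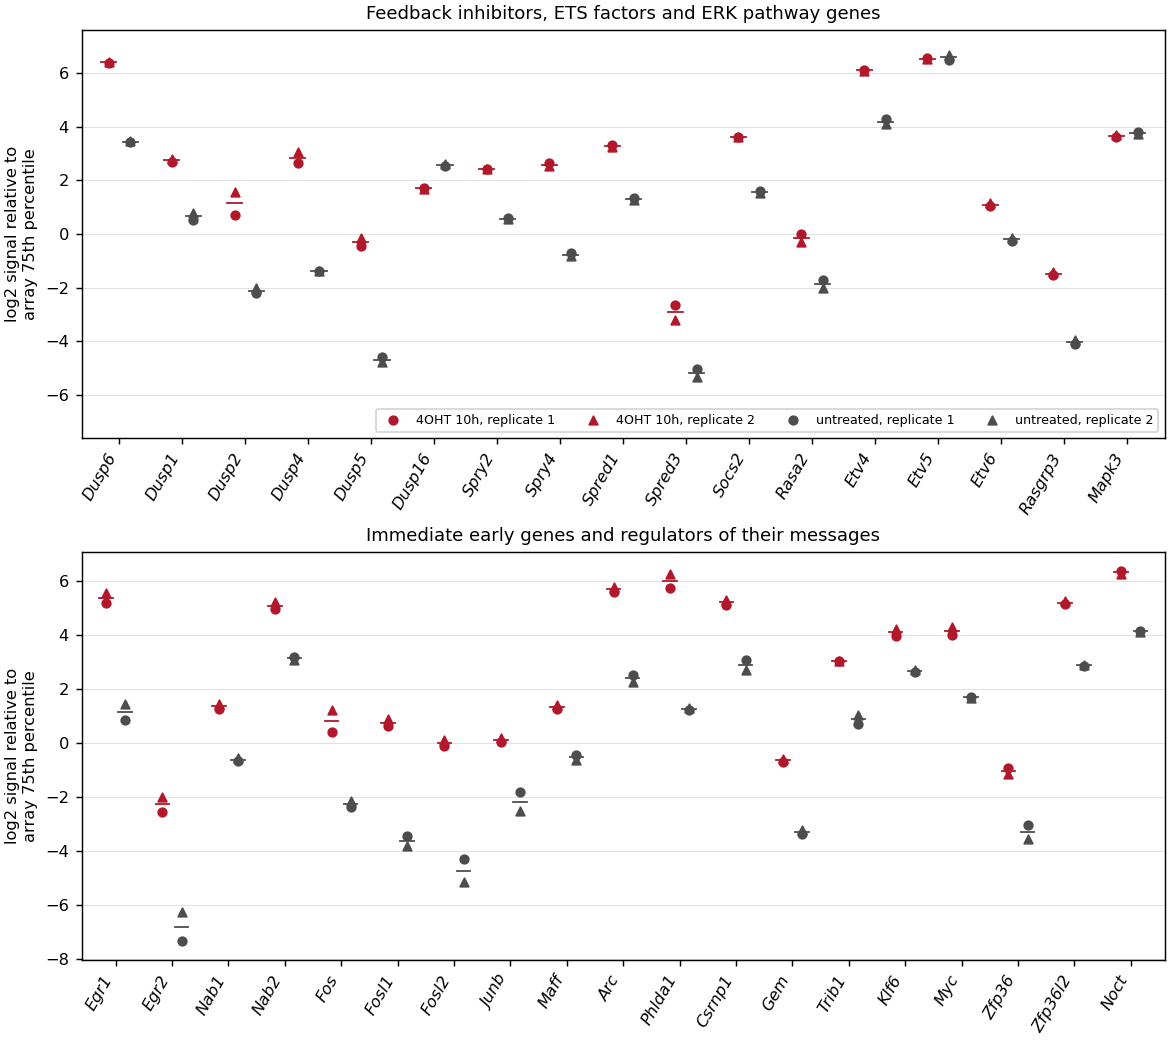
Points are single arrays (circles for replicate 1, triangles for replicate 2) and short lines are means of 2, with 4OHT 10h in red left of untreated in grey for each gene; the vertical axis is log2 signal relative to the array's 75th percentile. The feedback genes and the immediate early genes shown lie higher at 4OHT 10h, apart from Dusp16, while Etv5 and Mapk3 have means less than 0.4 apart in the 2 groups.

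Promoters of RefSeq genes (build GRCm38.p6, 250 bases before to 50 after the start) were available for 15 of the genes in these and the protease lists that rose 4-fold or more. They were searched on both strands for the CArG box bound by SRF, the AP-1 motif TGANTCA and the cyclic AMP response element TGACGTCA, and the genes printed are those with a match, chosen after the matches were seen. CArG boxes were found in 3 of the 15 (Dusp5, Egr2 and Zfp36), against 1.63% of all 32851 promoters of the table. The AP-1 motif was found in 2 (Csrnp1 and Plaur), against 7.81%, and the response element in 1 (Dusp1), against 1.79%. The matches are in capitals, in sequences written 5′ to 3′ on the strand of the gene. They lie at chr19:53528895-53529194, plus strand (Dusp5), chr10:67537316-67537615, plus (Egr2), chr7:28379179-28379478, minus (Zfp36), chr9:119982974-119983273, minus (Csrnp1), chr7:24462233-24462532, plus (Plaur), and chr17:26508423-26508722, minus (Dusp1).
Dusp5: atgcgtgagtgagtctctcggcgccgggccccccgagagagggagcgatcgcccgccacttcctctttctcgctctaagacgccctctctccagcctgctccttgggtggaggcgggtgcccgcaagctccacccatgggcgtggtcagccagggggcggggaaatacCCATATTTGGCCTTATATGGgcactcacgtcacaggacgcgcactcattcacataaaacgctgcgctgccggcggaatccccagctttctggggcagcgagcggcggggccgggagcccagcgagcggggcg
Egr2: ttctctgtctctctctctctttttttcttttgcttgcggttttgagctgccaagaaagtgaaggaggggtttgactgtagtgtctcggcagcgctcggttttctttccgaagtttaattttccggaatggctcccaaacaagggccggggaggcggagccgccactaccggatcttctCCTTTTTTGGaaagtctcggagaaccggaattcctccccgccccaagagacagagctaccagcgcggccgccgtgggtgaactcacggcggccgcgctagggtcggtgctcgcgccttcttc
Zfp36: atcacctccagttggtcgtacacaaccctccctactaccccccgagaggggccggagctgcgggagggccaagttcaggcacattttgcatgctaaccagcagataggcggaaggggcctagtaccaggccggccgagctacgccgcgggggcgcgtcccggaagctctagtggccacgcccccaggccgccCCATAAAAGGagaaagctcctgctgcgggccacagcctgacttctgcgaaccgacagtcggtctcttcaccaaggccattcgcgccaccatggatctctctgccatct
Csrnp1: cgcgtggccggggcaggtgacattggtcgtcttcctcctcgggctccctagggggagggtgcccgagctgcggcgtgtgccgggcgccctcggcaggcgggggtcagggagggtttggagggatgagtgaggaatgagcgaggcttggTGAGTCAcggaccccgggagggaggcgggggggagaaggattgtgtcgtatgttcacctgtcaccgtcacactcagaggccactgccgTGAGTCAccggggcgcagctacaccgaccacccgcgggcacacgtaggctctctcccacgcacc
Plaur: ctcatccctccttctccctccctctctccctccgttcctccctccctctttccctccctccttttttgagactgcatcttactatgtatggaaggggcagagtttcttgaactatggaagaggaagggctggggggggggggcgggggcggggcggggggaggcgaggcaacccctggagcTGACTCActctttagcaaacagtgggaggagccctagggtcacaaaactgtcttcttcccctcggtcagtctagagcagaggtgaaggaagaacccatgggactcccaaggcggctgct
Dusp1: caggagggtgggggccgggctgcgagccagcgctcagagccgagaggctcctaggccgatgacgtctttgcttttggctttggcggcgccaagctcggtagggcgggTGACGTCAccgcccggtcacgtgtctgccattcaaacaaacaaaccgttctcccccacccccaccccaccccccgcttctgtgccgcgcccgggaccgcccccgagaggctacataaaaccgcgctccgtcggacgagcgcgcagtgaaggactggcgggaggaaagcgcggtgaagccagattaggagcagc
Dusp5 holds 2 CArG boxes side by side, the first beginning 82 bases before the start, and Csrnp1 holds 2 AP-1 motifs, beginning 102 and 14 bases before it. Over all called genes with a promoter in the table, the AP-1 motif was found in 27 of the 240 that rose 4-fold or more (11.2%), in 10 of the 170 that fell as much (5.88%) and in 6.47% of all tested. The ETS motif CCGGAAG was found in 6.67% of those that rose and 1.76% of those that fell, against 17.8% of all tested and 8.86% of all promoters. The EGR motif GCGTGGGCG was found in 0.83% and 2.35%, against 1.3% and 0.61%, and the TCF motif CTTTGAT in 3.75% and 5.88%, against 3.09% and 3.73%. The CArG box was found in 8 of those that rose (3.33%) and in 2.35% of those that fell, against 1.69% of all tested. The response element was found in 2.92% and 1.76%, against 3.39% of all tested. A match says only that these letters lie in the window.

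Myc, an immediate early gene and a factor of growth and ribosome production, stood at 4.00 and 4.28 at 4OHT 10h, against 1.70 and 1.67 in untreated cells (2.46 ± 0.15, 5.49-fold), while 3 members of its network fell. Mycl stood at -2.13 and -1.64 at 4OHT 10h, against -0.16 and -0.03 in untreated cells (-1.79 ± 0.24). Mxd3, a MAX partner that opposes MYC, stood at -1.24 and -1.45 at 4OHT 10h, against -0.32 and -0.40 in untreated cells (-0.98 ± 0.12). Mycn, the family member most used in embryonic stem cells beside Myc, changed by -0.43 ± 0.09, adjusted p = 0.0208, a call lost with arrays centred on their median (0.12), with no filter on dim probes (0.0819), with only the 4 arrays compared (0.0562), on leaving out replicate 1 at 4OHT 10h (0.0795), on leaving out replicate 2 at 4OHT 10h (0.0986) and on leaving out replicate 2 of untreated cells (0.0873). In the MYC, MAX and MXD network 4 of 10 rose and 3 fell (median 0.07, left-out counts 1, 1, 1 and 1 higher and 2, 2, 3 and 2 lower, 70.0% called). Members called were 1 higher and 3 lower under quantile normalization.

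Genes of secreted ligands and their receptors went both ways. Hbegf, a ligand of the EGF receptor, stood at 4.48 and 4.24 at 4OHT 10h, against 2.13 and 1.94 in untreated cells (2.33 ± 0.15, 5.03-fold). Areg, another such ligand, was well above background at 4OHT 10h and on neither untreated array, and rose by at least 2.96-fold, a call lost on leaving out replicate 1 of untreated cells (0.0501). Lrig3, a membrane protein that regulates receptor tyrosine kinases, stood at 1.99 and 1.85 at 4OHT 10h, against 3.84 and 4.11 in untreated cells (-2.06 ± 0.11, 4.16-fold lower). Of the EGF receptor genes and ligands 3 of 13 rose and 5 fell (median -0.34, left-out counts 4, 2, 1 and 2 higher and 3, 2, 2 and 3 lower, 61.5% called). The list had 4 higher and 1 lower with arrays centred on their median, 3 higher and 3 lower under normexp background correction and 1 higher and 3 lower among probes above background on all 8 arrays.

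Fgfr4, an FGF receptor, stood at 3.21 and 2.97 at 4OHT 10h, against -1.57 and -1.82 in untreated cells (4.79 ± 0.22, 27.6-fold), with a second probe called the same way. Fgf4, the main FGF of embryonic stem cells, stood at 4.99 and 4.95 at 4OHT 10h, against 6.40 and 6.67 in untreated cells (-1.56 ± 0.10, 2.95-fold lower). Fgfr1, the main receptor of these cells, stood at 3.10 and 3.04 at 4OHT 10h, against 3.72 and 3.82 in untreated cells (-0.70 ± 0.07). Of the 2 other kept probes of Fgfr1, 1 was not called (-0.02, adjusted p = 0.915). The decoy receptor gene Fgfrl1 also fell (-0.50 ± 0.07). Of the FGF genes 2 of 16 rose and 5 fell (median -0.22, left-out counts 1, 1, 1 and 2 higher and 3, 3, 3 and 4 lower, 43.8% called). Counts for the list moved to 4 higher and 6 lower with the replicate block.

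Of the plasminogen system and matrix proteases 7 of 13 rose and 2 fell (median 0.63, left-out counts 7, 6, 6 and 6 higher and 2, 1, 1 and 1 lower, 69.2% called). Other settings gave 7 higher and 1 lower under normexp background correction and 1 lower among probes above background on all 8 arrays. Plaur, the urokinase receptor, stood at 5.95 and 6.04 at 4OHT 10h, against 2.29 and 1.99 in untreated cells (3.86 ± 0.12, 14.5-fold). Mmp9, a gelatinase, was well above background on both arrays at 4OHT 10h and on neither untreated array, and rose by at least 10.3-fold. The metalloprotease genes Adamts1 (2.78 ± 0.20) and Adam19 (1.79 ± 0.20) and the inhibitor gene Timp1 (0.90 ± 0.13) rose as well. Among the prostaglandin, endothelin and chemokine genes 5 of 14 rose and 1 fell (median 0.08, left-out counts 4, 3, 3 and 4 higher and 0, 0, 0 and 0 lower, 42.9% called). Its counts became 6 higher and 2 lower with the replicate block, 5 higher and 0 lower with arrays centred on their median, 4 higher and 0 lower under quantile normalization, 4 higher and 0 lower under normexp background correction and 3 higher among probes above background on all 8 arrays. Edn2 (endothelin 2) stood at 0.07 and 0.42 at 4OHT 10h, against -4.30 and -4.39 in untreated cells (4.59 ± 0.18, 24.1-fold), with 1 untreated array above background. Ptgs2 (cyclooxygenase 2) stood at -0.83 and -0.10 at 4OHT 10h, against -3.75 and -3.27 in untreated cells (3.05 ± 0.39, 8.29-fold), and Ptgs1 rose by 1.12 ± 0.15.

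Naive pluripotency factors, which mark the ground state of mouse embryonic stem cells, fell in 8 of 16 and rose in 5. Nanog stood at 1.93 and 1.48 at 4OHT 10h, against 4.78 and 4.83 in untreated cells (-3.10 ± 0.19, 8.58-fold lower), but its other kept probe was not called (-0.14, adjusted p = 0.578). Prdm14, which represses Dnmt3 genes and FGF signalling in these cells, stood at 0.32 and -0.34 at 4OHT 10h, against 3.15 and 2.99 in untreated cells (-3.08 ± 0.29, 8.48-fold lower). Tbx3 stood at 3.50 and 2.99 at 4OHT 10h, against 5.30 and 5.16 in untreated cells (-1.98 ± 0.24). In all 3 both 4OHT arrays lay below both untreated arrays, with replicate 2 the lower at 4OHT 10h. Klf4 stood at 3.93 and 3.16 at 4OHT 10h, against 5.40 and 5.26 in untreated cells (-1.79 ± 0.32, adjusted p = 0.0121, lost on leaving out replicate 1 of untreated cells (0.0636) and on leaving out replicate 2 of untreated cells (0.0518)). Tcl1, a coactivator of AKT, changed by -1.42 ± 0.24, adjusted p = 0.00976, lost on leaving out replicate 1 of untreated cells (0.0509). Esrrb, an orphan nuclear receptor, stood at 6.48 and 5.87 at 4OHT 10h, against 7.01 and 7.01 in untreated cells (-0.84 ± 0.23, adjusted p = 0.0414), and its call was lost with arrays centred on their median (0.106), with no filter on dim probes (0.113), with only the 4 arrays compared (0.089), on leaving out replicate 2 at 4OHT 10h (0.128), on leaving out replicate 1 of untreated cells (0.138) and on leaving out replicate 2 of untreated cells (0.129). Against them, Gbx2, a homeobox gene that sustains self-renewal downstream of LIF, stood at 4.39 and 4.00 at 4OHT 10h, against 1.54 and 1.42 in untreated cells (2.71 ± 0.16, 6.55-fold). Klf5 stood at 5.44 and 5.25 at 4OHT 10h, against 4.35 and 4.07 in untreated cells (1.13 ± 0.14), and Nr0b1, an orphan receptor gene, rose by 0.92 ± 0.14. The median of the list was -0.72, with left-out counts of 4, 4, 4 and 4 higher and 8, 6, 3 and 4 lower, 81.2% called.

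The 2 central pluripotency factors were not called. Pou5f1 stood at 6.82 and 6.82 at 4OHT 10h, against 6.57 and 6.64 in untreated cells (0.22 ± 0.10, adjusted p = 0.17) and was called with arrays centred on their median (0.0411). Sox2 stood at 4.29 and 4.23 at 4OHT 10h, against 3.93 and 4.11 in untreated cells (0.24 ± 0.08, adjusted p = 0.0875) and was called with arrays centred on their median (0.0265) and under normexp background correction (0.0255) and under limma-trend with a robust prior (0.0409). Utf1, a chromatin factor of these cells, rose by 1.00 ± 0.08 and Dppa4 by 0.95 ± 0.08, each with both 4OHT arrays above both untreated arrays. Of the core pluripotency genes 5 of 17 rose and 3 fell (median 0.24, left-out counts 5, 5, 5 and 6 higher and 2, 0, 1 and 1 lower, 47.1% called). Members called were 9 higher and 1 lower with arrays centred on their median. Of the members that fell, Fbxo15 changed by -1.40 ± 0.32, adjusted p = 0.0246, lost with no filter on dim probes (0.073), on leaving out replicate 2 at 4OHT 10h (0.0947), on leaving out replicate 1 of untreated cells (0.0962) and on leaving out replicate 2 of untreated cells (0.0929).

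Genes of the formative and primed epiblast, the state that follows naive pluripotency, rose in 11 of 19 and fell in 1 (median 0.93, left-out counts 8, 7, 8 and 10 higher and 0, 1, 0 and 1 lower, 63.2% called). The list had 14 higher and 4 lower with the replicate block, 11 higher and 2 lower under normexp background correction and 2 lower among probes above background on all 8 arrays. Pou3f1 (Oct6), a POU factor, stood at 3.91 and 4.21 at 4OHT 10h, against 0.46 and 0.78 in untreated cells (3.44 ± 0.19, 10.9-fold). Grhl2, which opens epithelial enhancers in formative cells, stood at 3.10 and 3.49 at 4OHT 10h, against -0.27 and 1.01 in untreated cells (2.93 ± 0.43, 7.6-fold), with the untreated replicates further apart than those at 4OHT 10h. Cdh2 (N-cadherin) stood at 2.14 and 2.66 at 4OHT 10h, against 0.29 and 0.76 in untreated cells (1.87 ± 0.27). Each of these had a gap between the groups larger than the spread within them. Tcf15, a bHLH factor of cells leaving the naive state, rose by 1.06 ± 0.10, Sox4 by 1.49 ± 0.14 and Sox11 by 1.20 ± 0.15. Fgf5, the usual marker of this state, stood at -3.99 and -3.41 at 4OHT 10h, against -5.22 and -4.04 in untreated cells and was not called (0.93 ± 0.49, adjusted p = 0.205, and 0.0176 with the replicate block). Sall2, the member that fell, changed by -1.91 ± 0.35, adjusted p = 0.0128, lost on leaving out replicate 1 at 4OHT 10h (0.0619), on leaving out replicate 1 of untreated cells (0.0508) and on leaving out replicate 2 of untreated cells (0.0659). On these 4 arrays the formative list was higher in replicate 2 for 15 of 19 members in both groups, against 7051 of all 22677 features.

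Dnmt3l, the cofactor of the DNA methyltransferases that are set up as cells leave the naive state, stood at 7.22 and 7.17 at 4OHT 10h, against 6.19 and 6.28 in untreated cells (0.97 ± 0.07). Dnmt3b rose by 0.92 ± 0.18, adjusted p = 0.0154, lost with no filter on dim probes (0.0525), with only the 4 arrays compared (0.0647), on leaving out replicate 1 at 4OHT 10h (0.06) and on leaving out replicate 2 at 4OHT 10h (0.0758). None of Tet1, Tet2, Tet3, Dnmt1 and Uhrf1 was called. In the LIF and STAT3 list 3 of 14 rose and 3 fell (median -0.03, left-out counts 2, 2, 2 and 2 higher and 3, 1, 1 and 1 lower, 42.9% called). Counts for the list moved to 4 higher and 5 lower with the replicate block. Spp1 (osteopontin) stood at 3.05 and 3.11 at 4OHT 10h, against 4.64 and 4.73 in untreated cells (-1.61 ± 0.07) and fell, the kinase gene Pim1 rose by 1.01 ± 0.10, and Socs3, a feedback inhibitor of STAT3 signalling, changed by -0.57 ± 0.10, adjusted p = 0.0122, lost with arrays centred on their median (0.0949), with no filter on dim probes (0.0512), with only the 4 arrays compared (0.0503), on leaving out replicate 2 at 4OHT 10h (0.0602), on leaving out replicate 1 of untreated cells (0.0595) and on leaving out replicate 2 of untreated cells (0.0503). Stat3, Lifr and Il6st, which encode the transducer and the receptor chains, were not called.

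**Figure D3:**
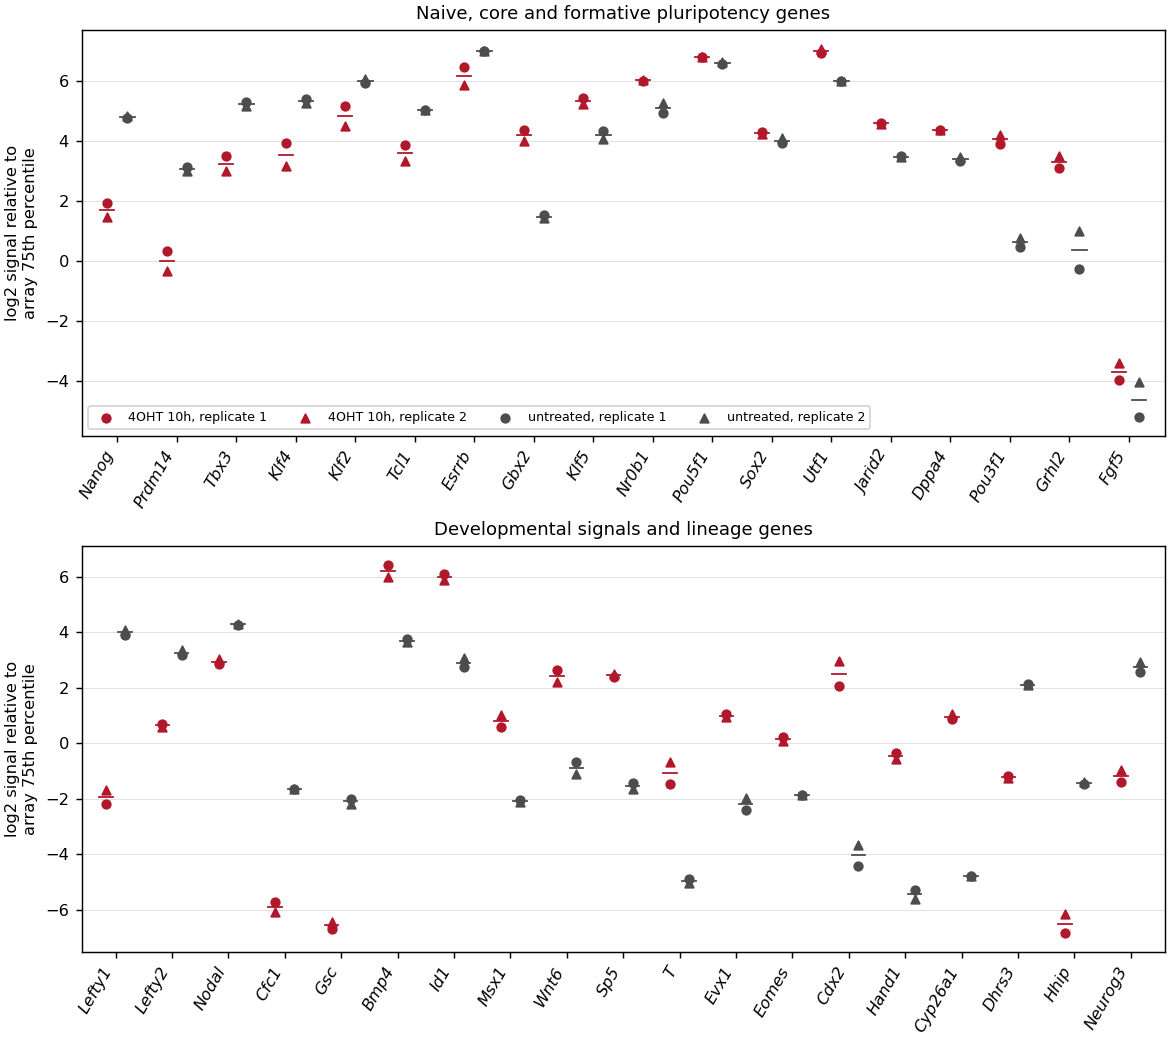
Points are single arrays (circles for replicate 1, triangles for replicate 2) and short lines are means of 2, with 4OHT 10h in red left of untreated in grey for each gene; the vertical axis is log2 signal relative to the array's 75th percentile. Nanog, Prdm14, Lefty1 and Neurog3 lie lower at 4OHT 10h, Pou3f1, Bmp4, Cdx2 and Cyp26a1 lie higher, and Pou5f1 and Sox2 differ by under 0.3.

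The Nodal pathway, which works in embryonic stem cells through SMAD2 and SMAD3 and limits itself through Lefty, was lower in 9 of 22 genes. Lefty1 stood at -2.18 and -1.70 at 4OHT 10h, against 3.90 and 4.09 in untreated cells (-5.94 ± 0.36, 61.3-fold lower). Lefty2 stood at 0.70 and 0.59 at 4OHT 10h, against 3.17 and 3.36 in untreated cells (-2.63 ± 0.10), and Nodal, the ligand, at 2.87 and 3.02 at 4OHT 10h, against 4.27 and 4.30 in untreated cells (-1.34 ± 0.12). In these 3 both 4OHT arrays lay below both untreated arrays. Cfc1 (Cryptic), a Nodal co-receptor, was well above background on both untreated arrays and on neither at 4OHT 10h, lower by at least 9.96-fold. Smad3, the effector, stood at -0.02 and -0.19 at 4OHT 10h, against 1.55 and 1.29 in untreated cells (-1.52 ± 0.15). Skil (SnoN), which represses SMAD targets, stood at 3.07 and 3.28 at 4OHT 10h, against 2.02 and 2.31 in untreated cells (1.00 ± 0.14) and rose. In all 2 of 22 rose and 9 fell (median -0.39, left-out counts 1, 1, 1 and 2 higher and 8, 7, 8 and 9 lower, 50% called). Other settings gave 4 higher and 12 lower with the replicate block.

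In the BMP pathway Bmp4 stood at 6.43 and 5.99 at 4OHT 10h, against 3.74 and 3.66 in untreated cells (2.51 ± 0.18, 5.7-fold). Its target Id1, an inhibitor of bHLH factors, stood at 6.11 and 5.88 at 4OHT 10h, against 2.75 and 3.06 in untreated cells (3.09 ± 0.17, 8.51-fold), and Msx1, another target, at 0.60 and 1.02 at 4OHT 10h, against -2.04 and -2.12 in untreated cells (2.89 ± 0.26). These 3 were higher on both 4OHT arrays, while Id2, Id3, Msx2 and Smad6, also targets, were not called. Bmp8b rose by 1.45 ± 0.15, while Bmp7 changed by -2.34 ± 0.31, adjusted p = 0.0046 and Id4 by -1.61 ± 0.22, adjusted p = 0.00493. Smad1, an effector of the pathway, also fell (-0.91 ± 0.14). Of its members 6 of 20 rose and 3 fell, while the median had the other sign (-0.16, left-out counts 5, 5, 5 and 5 higher and 4, 3, 3 and 3 lower, 45.0% called). Its counts became 6 higher and 5 lower with the replicate block and 5 lower among probes above background on all 8 arrays.

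In the WNT pathway Wnt6 and Wnt7b, which encode ligands, rose, and Sfrp1, Sfrp5 and Notum, which encode secreted inhibitors, fell. Wnt4, another ligand gene, and Dkk1, another secreted inhibitor gene, were not called. Nor were the list members Lef1, Nkd1, Nkd2, Znrf3, Rnf43 and Cdx1. Wnt6 stood at 2.65 and 2.21 at 4OHT 10h, against -0.69 and -1.10 in untreated cells (3.33 ± 0.25, 10-fold), and Wnt7b at -0.67 and -0.32 at 4OHT 10h, against -3.09 and -3.32 in untreated cells (2.71 ± 0.14). Sp5, a direct WNT target, stood at 2.39 and 2.50 at 4OHT 10h, against -1.44 and -1.65 in untreated cells (3.99 ± 0.10, 15.9-fold). Sfrp1, a secreted antagonist, stood at -1.18 and -1.66 at 4OHT 10h, against 2.04 and 1.61 in untreated cells (-3.25 ± 0.23, 9.49-fold lower). Sfrp5 stood at -1.38 and -1.22 at 4OHT 10h, against 1.47 and 1.73 in untreated cells (-2.90 ± 0.14, 7.46-fold lower). Tcf7l1, a repressor of WNT targets and of Nanog, stood at 0.80 and 1.02 at 4OHT 10h, against 2.49 and 2.35 in untreated cells (-1.51 ± 0.11), while its relative Tcf7 rose by 1.12 ± 0.12. Notum, a WNT deacylase that WNT signalling induces, fell (-0.79 ± 0.07). In the list 9 of 26 rose and 6 fell (median 0.12, left-out counts 9, 8, 8 and 9 higher and 6, 4, 4 and 4 lower, 57.7% called).

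Of the Hedgehog genes 2 of 14 rose and 6 fell (median -0.26, left-out counts 2, 2, 2 and 2 higher and 5, 4, 4 and 5 lower, 57.1% called). Hhip, a membrane protein that binds Hedgehog ligands, was well above background on both untreated arrays and on neither at 4OHT 10h, lower by at least 11.5-fold. The receptor gene Ptch1 stood at -2.67 and -2.62 at 4OHT 10h, against -1.32 and -1.66 in untreated cells (-1.15 ± 0.14), with both 4OHT arrays below both untreated arrays. Dhh, a ligand, rose by 2.01 ± 0.13. Smo (-0.76 ± 0.09), the signal transducer, and Boc (-1.34 ± 0.17), a co-receptor, fell.

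In retinoic acid metabolism Cyp26a1, which degrades retinoic acid, stood at 0.86 and 1.04 at 4OHT 10h, against -4.77 and -4.79 in untreated cells, with 1 untreated array above background (5.73 ± 0.10, 53.2-fold). Aldh1a3, which makes it from retinaldehyde, stood at 1.19 and 1.38 at 4OHT 10h, against -4.30 and -5.31 in untreated cells, likewise with 1 untreated array above background (6.09 ± 0.33). Dhrs3, which returns retinaldehyde to retinol, stood at -1.19 and -1.25 at 4OHT 10h, against 2.12 and 2.09 in untreated cells (-3.33 ± 0.12, 10-fold lower). A synthesizing and a degrading enzyme thus both stood higher, and the reducing enzyme lower. Of the receptors, Rarg rose by 1.22 ± 0.09 and Rarb fell (-1.64 ± 0.20), with 1 array at 4OHT 10h above background. Crabp2, a carrier protein gene that retinoic acid induces, fell (-0.89 ± 0.13). In all 4 of 18 rose and 5 fell (median -0.29, left-out counts 4, 4, 4 and 4 higher and 4, 3, 3 and 4 lower, 50% called). Members called were 4 higher and 8 lower with the replicate block and 2 higher among probes above background on all 8 arrays.

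Of the Notch and proneural genes 1 of 17 rose and 9 fell (median -0.58, left-out counts 0, 0, 1 and 1 higher and 6, 5, 5 and 4 lower, 58.8% called). The list had 2 higher and 11 lower with the replicate block, 2 higher and 7 lower with arrays centred on their median and 2 higher and 8 lower under quantile normalization. Neurog3, a proneural bHLH factor, stood at -1.38 and -0.96 at 4OHT 10h, against 2.56 and 2.94 in untreated cells (-3.92 ± 0.22, 15.1-fold lower). The receptor gene Notch3 stood at -0.28 and 0.21 at 4OHT 10h, against 1.30 and 1.46 in untreated cells (-1.42 ± 0.23), and Dll3, a ligand-like inhibitor, fell (-0.84 ± 0.11). The member that rose was the ligand gene Jag2 (0.64 ± 0.13, adjusted p = 0.0169, lost with no filter on dim probes (0.0614), with only the 4 arrays compared (0.0712), on leaving out replicate 1 at 4OHT 10h (0.065) and on leaving out replicate 2 at 4OHT 10h (0.0833)).

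Trophoblast genes went both ways, with the larger changes upward. Cdx2, a homeobox factor of trophoblast and of the posterior embryo, stood at 2.06 and 2.95 at 4OHT 10h, against -4.41 and -3.65 in untreated cells (6.53 ± 0.43, 92.6-fold). Hand1, a bHLH factor of trophoblast and extraembryonic mesoderm, was well above background on both arrays at 4OHT 10h and on neither untreated array, and rose by at least 20-fold. Tead4, a partner of YAP upstream of Cdx2 in the embryo, stood at 2.52 and 2.33 at 4OHT 10h, against 0.56 and -0.06 in untreated cells (2.17 ± 0.26), and Krt18, a simple epithelial keratin, at 5.27 and 5.57 at 4OHT 10h, against 2.90 and 3.33 in untreated cells (2.31 ± 0.18). These 4 were higher on both 4OHT arrays. Esx1, a placental homeobox gene, stood at -2.27 and -2.22 at 4OHT 10h, against -1.19 and -1.02 in untreated cells (-1.14 ± 0.13) and fell. In the list 9 of 19 rose and 5 fell (median 0.71, left-out counts 8, 6, 6 and 7 higher and 1, 2, 1 and 1 lower, 73.7% called). Counts for the list moved to 9 higher and 2 lower with arrays centred on their median. Of 6 defining trophoblast markers (Cdx2, Gata3, Elf5, Tfap2a, Krt7 and Hand1), 5 and 6 were well above background at 4OHT 10h, against 4 and 4 in untreated cells, with a summed level of 6.15 and 10.4 against 0.60 and 0.82 times the 75th percentile. Cdx2 made up most of the sum at 4OHT 10h. Gata3, Tfap2a and Hand1 were also higher on both 4OHT arrays. Krt7 stood at -4.45 and -3.78 at 4OHT 10h, against -4.38 and -3.73 in untreated cells. Elf5 was below background on 3 of the 4 arrays, and stood at -1.38 on replicate 2 at 4OHT 10h.

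Of the primitive streak and mesendoderm genes 5 of 13 rose and 3 fell (median 0.04, left-out counts 4, 4, 4 and 5 higher and 1, 1, 1 and 1 lower, 61.5% called). Other settings gave 5 higher and 1 lower with arrays centred on their median, 5 higher and 1 lower under quantile normalization, 5 higher and 1 lower under normexp background correction and 3 higher among probes above background on all 8 arrays. Evx1, a posterior streak homeobox gene, stood at 1.04 and 0.95 at 4OHT 10h, against -2.42 and -1.96 in untreated cells (3.18 ± 0.23, 9.09-fold). T (brachyury) stood at -1.45 and -0.69 at 4OHT 10h, against -4.90 and -5.03 in untreated cells, with 1 untreated array above background (3.89 ± 0.25), and Eomes, which trophoblast also uses, at 0.22 and 0.07 at 4OHT 10h, against -1.85 and -1.85 in untreated cells (1.99 ± 0.12). Gsc, a gene of the anterior streak and a Nodal target, went the other way, well above background on both untreated arrays and on neither at 4OHT 10h, lower by at least 7.26-fold.

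Primitive endoderm genes differed more between the replicate numbers than between the groups. Gata6, an endoderm factor, stood at 0.36 and -1.55 at 4OHT 10h, against -0.30 and -2.26 in untreated cells, with replicate 1 higher than replicate 2 by 1.91 and by 1.97 (0.68 ± 1.15, adjusted p = 0.688, and 0.00189 with the replicate block). Pdgfra stood at -1.77 and -4.24 at 4OHT 10h, against -1.87 and -3.74 in untreated cells (-0.20 ± 1.32, adjusted p = 0.925), with 1 array at 4OHT 10h above background. Over the 21 genes tested the median of replicate 1 minus replicate 2 was 1.59 at 4OHT 10h and 1.38 in untreated cells, against 0.01 and -0.02 for all genes tested. Replicate 1 was higher in both groups for 17 of the 21, against 6640 of all 22677. It was higher by more than 2-fold in both for 11 of the 21, against 60 of all 22677. In this list 2 rose and 0 fell in the limma fit, and 5 rose and 2 fell with the replicate block. Both that rose, Lamb1 (0.54 ± 0.11, adjusted p = 0.017) and Lrp2 (0.82 ± 0.16, adjusted p = 0.0142), are among the members with little difference between replicates. The call of Lamb1 was lost with no filter on dim probes (0.0652), on leaving out replicate 1 at 4OHT 10h (0.0757), on leaving out replicate 2 at 4OHT 10h (0.0756), on leaving out replicate 1 of untreated cells (0.0654) and on leaving out replicate 2 of untreated cells (0.073), and that of Lrp2 with no filter on dim probes (0.0509), with only the 4 arrays compared (0.0653), on leaving out replicate 1 of untreated cells (0.0716) and on leaving out replicate 2 of untreated cells (0.0512). The median change between the groups was 0.01.

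**Figure D4:**
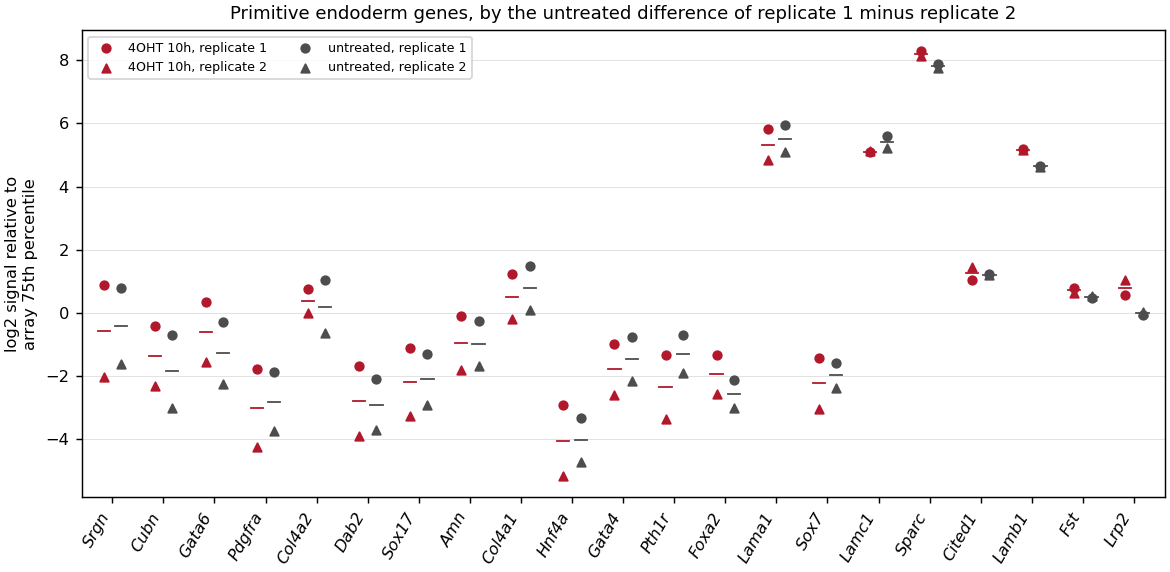
Points are single arrays (circles for replicate 1, triangles for replicate 2) and short lines are means of 2, with 4OHT 10h in red left of untreated in grey; genes are ordered by the untreated difference of replicate 1 minus replicate 2, and the vertical axis is log2 signal relative to the array's 75th percentile. From Srgn to Sox7 the circles lie above the triangles in both groups, while the means of the groups differ by 1.04 or less.

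Neural genes went both ways. Tubb3, a neuronal tubulin, stood at 2.34 and 2.16 at 4OHT 10h, against 3.67 and 3.79 in untreated cells (-1.48 ± 0.10, 2.8-fold lower), and Hesx1, an anterior homeobox gene, at -3.01 and -3.48 at 4OHT 10h, against -1.52 and -1.88 in untreated cells (-1.55 ± 0.25). Nes (nestin), an intermediate filament of neural progenitors, stood at 1.85 and 1.94 at 4OHT 10h, against 0.67 and 0.37 in untreated cells (1.38 ± 0.12) and rose, as did Lhx5 (1.38 ± 0.22). In the list 3 of 15 rose and 6 fell, with a median of the other sign (0.20, left-out counts 3, 3, 3 and 5 higher and 4, 4, 4 and 2 lower, 60% called). Of 38 HOX genes, which pattern the body axis, 18 passed the filter on dim probes, some only through the group where they were high. Of these 6 rose and 3 fell (left-out counts 3, 3, 4 and 5 higher and 3, 3, 3 and 2 lower, 50% called). Its counts became 6 higher and 7 lower with the replicate block and 1 higher and 1 lower among probes above background on all 8 arrays. Hoxd13 stood at -1.07 and -1.12 at 4OHT 10h, against -2.89 and -2.41 in untreated cells (1.55 ± 0.17), Hoxd1 rose by at least 2.17-fold and Hoxd10 by at least 2.21-fold, neither well above background in untreated cells. Hoxb13 was not well above background at 4OHT 10h and was lower by at least 9.31-fold.

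Epithelial genes rose in 10 of 26, and 0 fell in the limma fit, with a median of 0.65 (left-out counts 8, 7, 7 and 8 higher, 38.5% called). Members called were 15 higher and 2 lower with the replicate block. Krt23, a keratin, was well above background on both arrays at 4OHT 10h and on neither untreated array, and rose by at least 64.1-fold. Ovol1, an epithelial zinc finger repressor, stood at -0.49 and 0.01 at 4OHT 10h, against -4.68 and -3.90 in untreated cells (4.05 ± 0.34, 16.5-fold). Grhl3, of the same family as Grhl2, stood at 3.10 and 3.24 at 4OHT 10h, against 2.00 and 1.67 in untreated cells (1.34 ± 0.13). The junction gene Cldn9 rose by 1.21 ± 0.14. Of the EMT and mesenchymal genes 4 of 15 rose and 4 fell (median -0.13, left-out counts 4, 4, 4 and 4 higher and 3, 1, 1 and 3 lower, 53.3% called). The list had 6 higher and 7 lower with the replicate block and 5 higher and 2 lower with arrays centred on their median. Twist1 stood at -0.38 and 0.06 at 4OHT 10h, against -3.61 and -3.07 in untreated cells (3.18 ± 0.23, 9.04-fold), while Snai2 (Slug) stood at -3.91 and -4.39 at 4OHT 10h, against -1.72 and -1.77 in untreated cells (-2.41 ± 0.25), with 1 array at 4OHT 10h above background. The 2 repressors thus moved oppositely. Tgfb1 rose by 1.97 ± 0.19 and Vim (vimentin) by 0.67 ± 0.07.

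Among targets of SRF and YAP, which follow the actin cytoskeleton, 7 of 27 rose and 7 fell (median -0.19, left-out counts 6, 6, 5 and 7 higher and 5, 5, 5 and 5 lower, 51.9% called). Filip1l stood at -1.11 and -0.53 at 4OHT 10h, against -4.61 and -5.44 in untreated cells, with 1 untreated array above background (4.20 ± 0.40), Pdlim7 rose by 1.57 ± 0.09 and Zyx (zyxin) by 1.23 ± 0.11. Cnn2 (calponin 2) fell (-1.04 ± 0.08), as did Amotl2 (-0.98 ± 0.09), a YAP target, and Lima1 (-1.56 ± 0.21). Of the matrix and integrin genes 5 of 24 rose and 7 fell (median -0.30, left-out counts 5, 5, 4 and 5 higher and 4, 3, 3 and 7 lower, 50% called). Counts for the list moved to 6 higher and 4 lower with arrays centred on their median. Itga3 stood at 2.94 and 3.27 at 4OHT 10h, against 0.14 and 0.25 in untreated cells (2.91 ± 0.17, 7.51-fold) and Itgb1, its partner, at 3.12 and 3.05 at 4OHT 10h, against 1.64 and 1.36 in untreated cells (1.58 ± 0.11), while the laminin genes Lama5 (-1.19 ± 0.12) and Lamb3 (-1.69 ± 0.26) fell. Of the ephrins and Eph receptors 5 of 17 rose and 8 fell (median -0.23, left-out counts 3, 3, 4 and 5 higher and 6, 4, 4 and 6 lower, 76.5% called). Other settings gave 5 higher and 5 lower with arrays centred on their median and 3 higher and 5 lower under quantile normalization. Epha1 (2.85 ± 0.31) and Epha2 (1.51 ± 0.11), which encode receptors, rose, and the ligand genes Efna1 (-1.92 ± 0.17, with 1 array at 4OHT 10h above background) and Efnb1 (-1.33 ± 0.18) fell, while the ligand gene Efna5 rose by 1.97 ± 0.26.

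Among metabolic and growth genes the sterol and fatty acid list was mostly higher, as 18 of 31 rose and 2 fell (median 0.44, left-out counts 13, 10, 15 and 14 higher and 1, 0, 1 and 1 lower, 64.5% called). Its counts became 20 higher and 1 lower with arrays centred on their median. Msmo1, a sterol demethylation enzyme, stood at 4.93 and 4.89 at 4OHT 10h, against 3.45 and 3.34 in untreated cells (1.52 ± 0.10). Both 4OHT arrays lay above both untreated arrays. Idi1 rose by 0.82 ± 0.08, Cyp51 by 0.90 ± 0.08 and Fdft1 by 0.74 ± 0.07. Of the fatty acid genes Scd2 rose, and Fasn, Acaca, Acly, Scd1 and Elovl6 were not called.

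Ribosome biogenesis factors, which MYC induces in many cells, rose in 20 of 35, and 0 fell in the limma fit or with the replicate block (median 0.34). The changes were small, and their number depended on the scaling and on single arrays, with 6 higher in a fit of only the 4 arrays compared and left-out counts of 8, 6, 8 and 13 higher, 57.1% called. The list had 32 higher and 0 lower with arrays centred on their median and 11 higher and 0 lower under quantile normalization. Ddx21, a helicase of the nucleolus, stood at 5.06 and 5.14 at 4OHT 10h, against 4.38 and 4.32 in untreated cells (0.75 ± 0.08), and Gnl3 (nucleostemin) at 4.92 and 4.89 at 4OHT 10h, against 4.31 and 4.26 in untreated cells (0.62 ± 0.07). Nip7 rose by 0.67 ± 0.10. Of the integrated stress and unfolded protein genes 6 of 25 rose and 1 fell (median 0.05, left-out counts 4, 8, 5 and 4 higher and 1, 0, 0 and 1 lower, 28.0% called). Members called were 7 higher and 2 lower with the replicate block, 9 higher and 0 lower with arrays centred on their median and 2 lower among probes above background on all 8 arrays. Xbp1, a factor of the unfolded protein response, stood at 5.21 and 5.14 at 4OHT 10h, against 4.13 and 4.04 in untreated cells (1.09 ± 0.08), and the amino acid transporter genes Slc7a5 and Slc3a2 rose by 0.92 ± 0.14 (0.28 and not called on the other kept probe of Slc7a5) and 0.79 ± 0.11, while Atf4, Ddit3 and Hspa5 were not called.

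Of the glycolysis and hypoxia genes 5 of 27 rose and 2 fell (median 0.16, left-out counts 2, 3, 3 and 3 higher and 2, 0, 1 and 2 lower, 25.9% called, 10 higher and 4 lower with the replicate block and 12 higher and 1 lower with arrays centred on their median), among them Adm (adrenomedullin), which rose by 2.32 ± 0.24 with 1 untreated array above background. Of the 27 respiratory chain genes 1 rose and 0 fell in the limma fit (median 0.00, 3.7% called). The list had 1 higher and 1 lower with the replicate block, 4 higher and 0 lower (median 0.18) with arrays centred on their median, 1 higher and 1 lower under quantile normalization and 1 higher and 1 lower under normexp background correction. The gene that rose, Ndufa4, changed by 0.48 ± 0.09, adjusted p = 0.0151, lost with no filter on dim probes (0.0634), with only the 4 arrays compared (0.0552), on leaving out replicate 1 at 4OHT 10h (0.0768), on leaving out replicate 2 at 4OHT 10h (0.0555) and on leaving out replicate 1 of untreated cells (0.0674). Lysosome and autophagy genes went both ways, as 9 of 33 rose and 9 fell (median -0.03, left-out counts 6, 8, 7 and 7 higher and 7, 3, 3 and 4 lower, 54.5% called). Ctsl (cathepsin L) stood at 7.33 and 7.53 at 4OHT 10h, against 5.45 and 5.51 in untreated cells (1.95 ± 0.09, 3.86-fold) and Manba (beta-mannosidase) at 3.74 and 3.61 at 4OHT 10h, against 1.92 and 2.03 in untreated cells (1.70 ± 0.09), while Ctsf (-1.42 ± 0.13) fell. Of the Polycomb genes 8 of 24 rose and 4 fell (median 0.16, left-out counts 3, 3, 3 and 5 higher and 3, 2, 3 and 2 lower, 50% called). Counts for the list moved to 12 higher and 2 lower with arrays centred on their median. Jarid2, a cofactor of Polycomb complex 2, stood at 4.60 and 4.59 at 4OHT 10h, against 3.50 and 3.46 in untreated cells (1.12 ± 0.07), and Phf19 rose by 0.92 ± 0.10.

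Genes of mitosis were mostly not called. Of the 20 G2 and M phase genes 1 rose and 0 fell in the limma fit (median 0.00, 5.0% called). Other settings gave 4 higher and 0 lower (median 0.18) with arrays centred on their median and 0 higher and 0 lower under quantile normalization. The gene that rose was Cdc20 (0.52 ± 0.15, adjusted p = 0.0475), lost under quantile normalization (0.145), with no filter on dim probes (0.133), with only the 4 arrays compared (0.0899), on leaving out replicate 1 at 4OHT 10h (0.0702), on leaving out replicate 2 at 4OHT 10h (0.199), on leaving out replicate 1 of untreated cells (0.185) and on leaving out replicate 2 of untreated cells (0.0705). Of the cyclins, CDKs and their inhibitors 6 of 27 rose and 5 fell (median -0.03, left-out counts 2, 3, 4 and 3 higher and 4, 5, 4 and 5 lower, 40.7% called). Its counts became 6 higher and 7 lower under quantile normalization and 6 higher and 7 lower under normexp background correction. Ccne1 (cyclin E1) stood at 7.43 and 7.55 at 4OHT 10h, against 6.36 and 6.61 in untreated cells (1.00 ± 0.12), and Cdkn1b (p27), a CDK inhibitor, at 1.22 and 0.90 at 4OHT 10h, against 2.40 and 2.17 in untreated cells (-1.22 ± 0.18). The gene of the inhibitor was thus lower and that of the cyclin higher on both 4OHT arrays. E2f1 fell (-1.03 ± 0.11), and E2f8, a repressor of the family, rose by 0.97 ± 0.15.

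Apoptosis regulators split. Bcl2l11 (BIM), a death-promoting BH3 protein, stood at 0.15 and 0.54 at 4OHT 10h, against -2.24 and -1.95 in untreated cells (2.44 ± 0.23, 5.43-fold), and Pmaip1 (NOXA) at 2.60 and 2.27 at 4OHT 10h, against 0.35 and 0.06 in untreated cells (2.23 ± 0.24, 4.7-fold). Bcl2l1, which encodes the protective BCL-XL, rose by 0.97 ± 0.08. Bmf, another BH3 protein gene, stood at 0.06 and 0.00 at 4OHT 10h, against 1.41 and 1.53 in untreated cells (-1.44 ± 0.10) and fell. Of the p53 targets in this list, Perp rose by 2.11 ± 0.21 and Sesn1 (-1.13 ± 0.09) and Phlda3 (-0.72 ± 0.11) fell. Mdm2 was also called higher and Cdkn1a lower. The call of Cdkn1a was lost with arrays centred on their median (0.0649) and with no filter on dim probes (0.0869). It was lost as well with only the 4 arrays compared (0.0748) and with some single arrays left out. Ccng1, Bbc3, Bax, Aen and Zmat3 were not called. In all 8 of 25 rose and 6 fell (median 0.02, left-out counts 7, 6, 6 and 7 higher and 4, 4, 5 and 5 lower, 56.0% called).

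Lists that mark other sources of change gave the following. Fibroblast markers rose in 2 of 10 and fell in 2 (left-out counts 2, 2, 2 and 1 higher and 1, 0, 0 and 1 lower, 40% called). Members called were 2 higher and 1 lower with arrays centred on their median, 2 higher and 0 lower under quantile normalization, 2 higher and 1 lower under normexp background correction and 1 lower among probes above background on all 8 arrays. A further 8 members did not pass the filter on dim probes. Of 8 defining ones, Dcn, Lum and Twist2 were not well above background on any of the 4 arrays. Col3a1 and Postn were well above background only on replicate 2 of untreated cells, at -3.43 and -2.71, against -5.79 and -7.34 on replicate 1. The summed level of the 8 was 41.0 and 19.0 times the 75th percentile at 4OHT 10h, against 3.44 and 2.30 in untreated cells, and Thy1, which T cells and neurons share with fibroblasts, made up most of it at 5.35 and 4.23 at 4OHT 10h, against 1.63 and 0.70 in untreated cells (3.62 ± 0.60, adjusted p = 0.00934, lost on leaving out replicate 2 of untreated cells (0.0507)). S100a4, a calcium-binding protein gene, rose by 2.52 ± 0.09. Of 4 neural markers, all well above background on all 4 arrays, the summed level was 5.68 and 5.14 at 4OHT 10h, against 13.6 and 14.9 in untreated cells. Of 11 oestrogen receptor targets tested 1 rose (Xbp1) and 3 fell (left-out counts 1, 1, 1 and 1 higher and 1, 1, 2 and 1 lower, 36.4% called, 2 higher and 3 lower with the replicate block and 2 higher and 3 lower under normexp background correction), among them the chemokine gene Cxcl12, which was above background on neither array at 4OHT 10h and was lower by at least 7.81-fold. Greb1 and the receptor gene Esr1 were not called. Of 6 genes of the two-cell-like state 0 rose and 1 fell in the limma fit, Zfp352 (-0.45 ± 0.12, adjusted p = 0.0401), lost with arrays centred on their median (0.163), with no filter on dim probes (0.123), with only the 4 arrays compared (0.0556), on leaving out replicate 1 at 4OHT 10h (0.102), on leaving out replicate 2 at 4OHT 10h (0.163), on leaving out replicate 1 of untreated cells (0.0902) and on leaving out replicate 2 of untreated cells (0.148). The part of these sources in the other results was not tested.

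**Figure D5:**
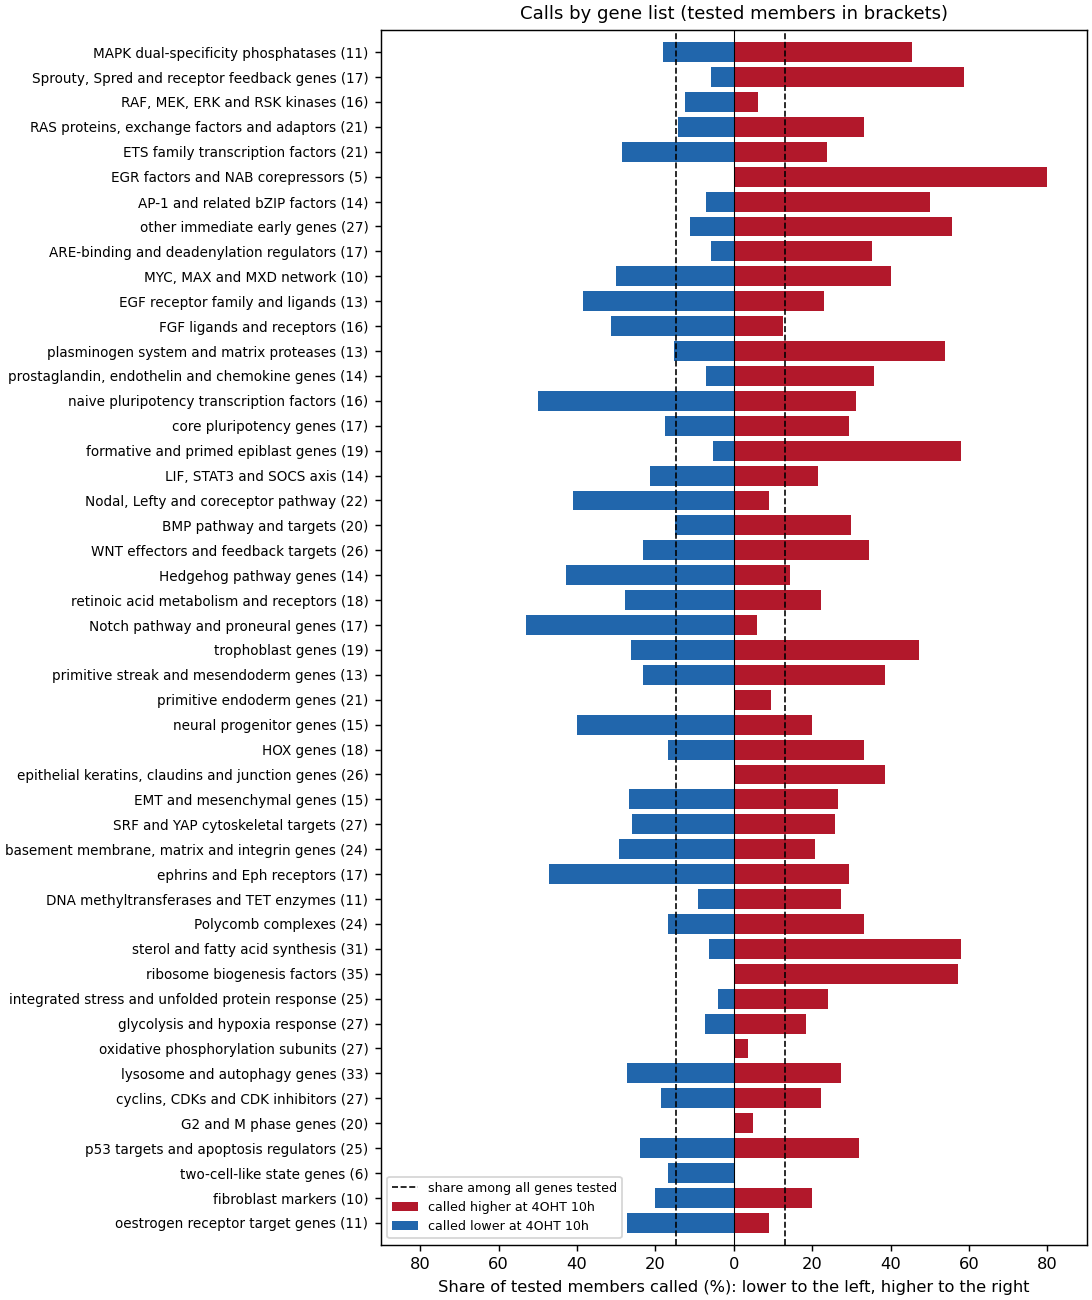
Bars give, for each gene list, the share of tested members called higher at 4OHT 10h (red, to the right) and lower (blue, to the left), in percent, with the number tested in brackets; dashed lines mark the shares among all 22677 features (13.1% higher, 14.8% lower). EGR factors and NAB corepressors, Sprouty and Spred genes, sterol synthesis, formative epiblast and ribosome biogenesis genes extend furthest to the right, Notch and naive pluripotency genes to the left, and the G2 and M phase and respiratory chain lists lie inside both lines. The lines include features without a gene symbol, while all list members have one. Of the 14490 features with a symbol, 2351 were called higher and 2557 lower.

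Several of the largest changes lay outside these lists. Grm6, a metabotropic glutamate receptor, was well above background on both arrays at 4OHT 10h and on neither untreated array, and rose by at least 118-fold. Slc35f1, a transporter of the solute carrier family, rose by at least 44-fold, Loxl4, a lysyl oxidase, by at least 22-fold and Col6a5, a collagen chain, by at least 17.3-fold, none of them above background in untreated cells. The second kept probe of Slc35f1 was not called (1.30, adjusted p = 0.0962), while that of Loxl4 was. Among genes measured in both groups, Ubash3b, a phosphatase that acts on tyrosine kinases, stood at 2.82 and 2.79 at 4OHT 10h, against -1.74 and -2.54 in untreated cells (4.94 ± 0.26, 30.7-fold). The neuropeptide genes Npy and Vgf stood at 1.40 and 1.02 and at 2.63 and 3.97 at 4OHT 10h, against -3.99 and -3.71 and -2.13 and -1.42 in untreated cells (5.06 ± 0.18 and 5.08 ± 0.63). Vgf had the wider replicates in both groups. Gsx1, a neural homeobox gene, stood at 1.76 and 2.61 at 4OHT 10h, against -3.36 and -2.82 in untreated cells (5.27 ± 0.49).

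Among the large falls outside the lists, Trim47, a ubiquitin ligase, stood at -2.50 and -2.38 at 4OHT 10h, against 1.63 and 1.28 in untreated cells (-3.89 ± 0.16, 14.9-fold lower), with a second probe called the same way. The eye field homeobox gene Rax stood at -5.04 and -6.02 at 4OHT 10h, against -1.45 and -1.60 in untreated cells (-4.01 ± 0.61) and the LIM-domain gene Lmo1 at -4.52 and -6.08 at 4OHT 10h, against -1.03 and -1.05 in untreated cells (-4.26 ± 0.53), each with 1 array at 4OHT 10h above background. Rassf4, a RAS association domain gene, was above background on neither array at 4OHT 10h and was lower by at least 5.03-fold. Of 333 long noncoding RNAs tested 34 rose and 50 fell, or 25.2% called. The share was 27.9% for all features and 33.9% for those with a gene symbol, as all of these have.

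Against cells with 4OHT for 8 h, those with 4OHT for 10 h differed in 0 of 22677 genes in limma's test (0.0%) and in 1501 (6.62%) at an unadjusted p under 0.05, and 0 were called with the replicate block. The count was 4 without 4OHT 10h replicate 1, 2 without 4OHT 8h replicate 1 and 1 without 4OHT 8h replicate 2. Egr1 stood at 5.16 and 5.56 at 10 h, against 4.76 and 5.15 at 8 h (0.40 ± 0.29, adjusted p = 0.862). Nanog stood at 1.93 and 1.48 at 10 h, against 2.31 and 2.12 at 8 h (-0.51 ± 0.19, adjusted p = 0.741). Dusp6 stood at 6.38 and 6.42 at 10 h, against 6.32 and 6.26 at 8 h (0.11 ± 0.09, adjusted p = 0.886). Krt23 stood at 0.89 and 1.49 at 10 h, against 0.00 and 0.44 at 8 h (0.97 ± 0.43, adjusted p = 0.773). None of these differences passed the test, which does not show that the 2 times were alike.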

How the data were processed

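RNA of 8 mouse embryonic stem cell samples (4 groups of 2) was labelled from 100 ng and hybridised to single-colour Agilent arrays of design 028005 on 1 slide, per the file headers scanned and extracted with Feature Extraction 11.0.1.1. The deposited intensities are the processed signals of that software, per the file headers, whose correction settings are not given in the sources used here, and the authors' value table, also intensity, differed from them by at most 0.5%, is linear and uncentred, with column medians of 18.1 to 25.1. Processed signals were averaged per probe, divided by the array's 75th percentile and taken to log2, control spots and outlier spots left out. A probe was kept if the 2 arrays of any group both flagged it well above background (30291 probes), and each gene is its brightest probe. Symbols came from RefSeq tables through accessions (27656 of 55681 probes with 1 symbol).

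All 8 arrays entered 1 limma fit of group means (limma 3.58.1), with Benjamini-Hochberg adjusted p over all genes and a threshold of 0.05; adjusted p-values in the text are from that fit unless another is named. Same-numbered arrays deviated together in all 6 pairs of groups (correlation 0.29 to 0.36), but the main fit did not take them as pairs. A fit with the replicate block was an alternative. Others were quantile and median scaling, normexp (offset 50), no filter, a filter over all 8 arrays and the 4 arrays alone. Further ones were limma-trend, the mean of probes, the authors' table and each array left out. The row on the slide goes with the replicate number, and the column goes with the group, so the 2 cannot be told apart. Named genes were the 15 largest called changes each way, up to 6 per list each way by adjusted p, and a set list of pathway genes. The members and lists were chosen with earlier results of these data known. The fit was tested on simulated data in which the arrays varied independently, unlike the same-numbered arrays here. Some genes of the lists are not reported here.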

Additional observations from a re-analysis of the deposited data

How the results depend on the processing

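The 6331 calls became 3312 (1578 higher, 1734 lower) with no filter on dim probes, which tests 36948 features, and 3991 (1781 higher, 2210 lower) with only the 4 arrays compared, which leaves fewer arrays to estimate the spread. Leaving out 1 array gave 3173 to 4062 calls, 1507 to 2047 higher and 1666 to 2092 lower, again with fewer arrays. Median centring gave 4867 higher and 1852 lower, because it moves all changes by 0.19. Normexp, which adds an offset, gave 1102 calls of at least 2-fold in place of 2117. Against 4OHT 8h, leaving out 1 array gave 0 to 4 calls. Of 368 named genes, 208 called higher and 151 lower, the largest numbers of calls lost were 95 without 4OHT 10h replicate 2 and 93 with no filter, and the authors' table changed none. With the replicate block, 8865 genes were called, Gata6 and Fgf5 gained a call, Rasgrp4 lost its call, and no other named gene changed. Averaging the kept probes reversed Gcm1 (0.39) and Nkx1-2 (1.22), whose probes disagree. Under the other alternatives, no named gene that was called there or in the main fit changed sign. Changes of sign in named genes called in neither were not counted. Faint probes limit what low genes can show: the faintest signal well above background was 6.68 and 17.1 at 4OHT 10h, against 9.58 and 18.1 in untreated cells.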

Other observations

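Among the 8187 tested features without a gene symbol here, 629 rose and 794 fell at 4OHT 10h. Of 1565 called genes with several kept probes, another probe was called the same way in 972 and the opposite way in 17. Replicate 1 was higher than replicate 2 in both groups for 20 of the 33 lysosome and autophagy genes, against 6640 of all 22677 features. Replicate 2 was higher in both groups for 18 of the 26 epithelial genes and 15 of the 19 formative genes, against 7051 of all 22677. Other lists leaned as well, with replicate 1 higher for 10 of 14 LIF and STAT3 genes. Replicate 2 was higher for 16 of 27 SRF and YAP targets, 15 of 27 other immediate early genes and 14 of 25 p53 and apoptosis genes.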
